A study of Mus musculus with 8 samples.

Results

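The genes described here belong to 9 families that write, erase or read chemical marks on histones and DNA. They were taken by name: every gene symbol in the array's probe annotation that begins with Dnmt, Tet, Kat, Brd, Kmt, Setd, Prmt, Kdm or Sirt followed by a number. This gave 69 genes with 134 probes, out of 19087 genes with a symbol and 31334 genes or single array features tested. The working name of the group, histone and DNA modifying enzymes beyond deacetylases, fits only loosely. The Sirt family is made of NAD-dependent deacylases, Brd proteins are readers of acetylated lysine, Dnmt3l has no methyltransferase activity of its own, and Setd3 is known as an actin histidine methyltransferase.

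The RNA came from the nucleus accumbens of male mice that went through conditioned place preference, a procedure in which an animal learns to link a place with an injection. The cocaine group received cocaine at 15 mg/kg on days 2, 3 and 4, and the saline group received saline on those days. Strain, age and the time between the last injection and dissection are not given in the labels. Each of 4 two-colour hybridisations set RNA of 1 cocaine mouse against RNA of 1 saline mouse, with cocaine in Cy5 in 2 of them (replicates 1 and 2) and saline in Cy5 in the other 2 (replicates 1 and 2). Each was read by an Axon and an Agilent scanner, and the mean of both scans counted as 1 replicate, so n was 4 throughout. The series' design names 5 independent measurements, and the number of hybridisations used here was 4.

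DNA methyltransferases place methyl groups on cytosine and Tet enzymes oxidise them. Histone acetyltransferases open chromatin, bromodomain proteins bind the acetyl marks, and methyltransferases and demethylases add and remove marks that go with active or silent genes. In the nucleus accumbens several of these enzymes, among them Dnmt3a, Tet1 and sirtuins, have been studied for their part in lasting responses to cocaine.

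All values below are log2 ratios of cocaine over saline after centring each scan on its median. The labels leave the direction unstated, and it is an assumption here, with every column read as already turned to cocaine over saline. That the columns share 1 treatment direction is seen in the difference between Axon and Agilent scans, which across array features correlated at 0.515 and 0.516 for like-oriented hybridisations and at -0.542 to -0.493 for opposite ones, the sign change that a turned ratio gives a dye property. This does not tell cocaine over saline from saline over cocaine. The sample titles name the Cy5 sample first, which gives the dyes but not the direction of the ratio. The choice of cocaine over saline therefore remains an assumption. Were it the other way, every sign below would turn, Kat2a would be the lowest member and Kdm8 the highest, and the dye coefficients would read Cy3 over Cy5. The arrays give ratios without intensities, so neither the level of a gene nor its detection above background is known here. In such bulk tissue, a smaller number of cells of a type and less RNA per cell cannot be told apart. Centred ratios correlated at 0.833 to 0.871 where the dyes ran alike and at -0.896 to -0.754 where they were swapped, and the median size of the dye coefficient was 0.749, beside 0.133 for the cocaine coefficient. The cocaine coefficient is the mean of the 4 centred ratios, fitted with limma beside a dye coefficient. Dye-profile values, given beside it, are ratios from which each scan's trend along the mean dye effect of every feature was removed. Across the 31334 features, 8 had an adjusted p below 0.05 in limma, of which 1 was higher and 7 were lower.

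None of the 69 genes had an adjusted p below 0.05 in limma (0 of 69, where 0.0255% of all features did, 0.00319% higher and 0.0223% lower). The lowest adjusted p was 0.755, for Kat2a. At an unadjusted p below 0.05 there were 2 members, Kat2a and Setd2, both higher, which is 2.90% of the members where 6.04% of all features reached it. In dye-profile values 0 members and 0% of all features passed, and 2 members, Kat2a and Dnmt3b, had an unadjusted p below 0.05 (7.24% of all features). The limma standard errors of the members lay between 0.17 and 0.28, and the 95% intervals reached a median of 0.368 to either side. For 67 of the 69 members the whole interval lay within 1 log2 unit of 0, that is, within a change of 2-fold. The exceptions were Kdm8 and Prmt1.

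The members as a list stood slightly above 0, with a median cocaine coefficient of 0.15 and 58 of 69 above 0, beside a median of 0.03 over all features, of which 56.6% were above 0. The range ran from -0.56 for Kdm8 to 0.49 for Kat2a. In dye-profile values the median was 0.06 and 46 members (66.7%) were above 0, beside a median of -0.001 and 49.8% over all features. All 8 Setd genes and all 7 Sirt genes had centred coefficients above 0, with family medians of 0.16 and 0.21. The dye-profile coefficient was above 0 for 6 of 8 Setd genes and for 6 of 7 Sirt genes. Family medians of the other 7 families lay between 0.13 (Kat) and 0.20 (Tet).

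**Figure D1:**
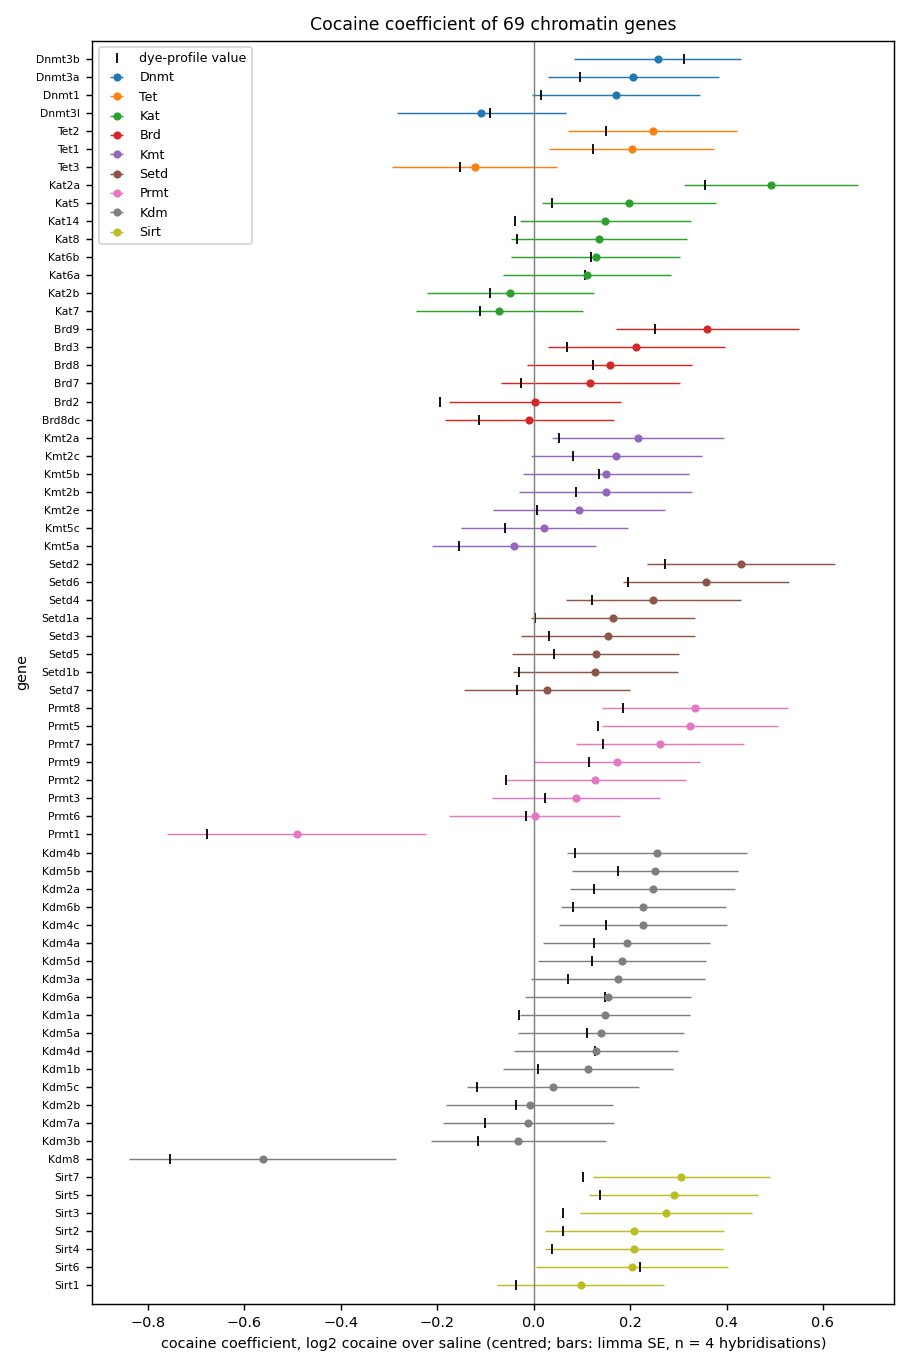
Cocaine coefficients (horizontal axis, log2 cocaine over saline) of the 69 members, 1 row each, ordered within the 9 families. Points with bars are the centred coefficients with limma standard errors over n = 4 hybridisations, and vertical ticks are the dye-profile coefficients. Most points lie between 0 and 0.3, Kat2a is highest at 0.49, and Prmt1 and Kdm8 lie apart at -0.49 and -0.56.

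Single ratios of the members turned with the dye orientation. The median of 0.154 and the 84.1% of members above 0 were the same with and without a dye coefficient in the fit. With 2 hybridisations per orientation the design fixes this in advance, so it cannot show whether the cocaine coefficients are free of the dye. The members' median centred ratios were 0.72 and 1.09 with cocaine in Cy5 (replicates 1 and 2) and -0.38 and -0.84 with saline in Cy5. Over all features the medians were -0.11 and -0.21 with cocaine in Cy5 and 0.08 and 0.16 with saline in Cy5. Over the 19087 genes with a symbol they had the signs of the members. There they were 0.11 and 0.23 with cocaine in Cy5 and -0.10 and -0.15 with saline in Cy5. The members' medians thus had opposite signs in the 2 orientations. In dye-profile values the member medians were 0.02 and 0.05 with cocaine in Cy5 and 0.09 and 0.01 with saline in Cy5.

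**Figure D2:**
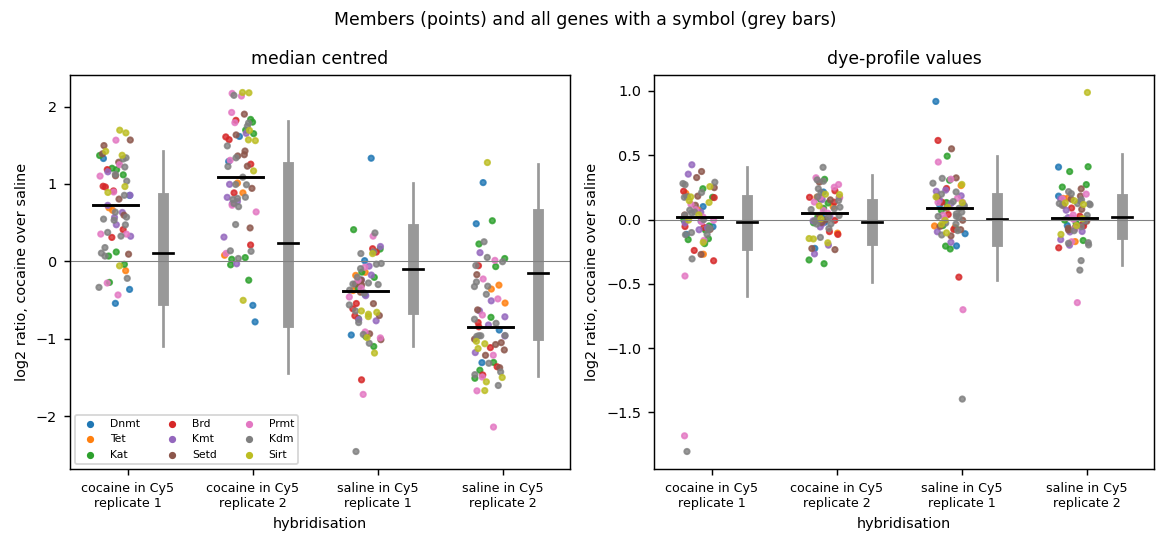
Log2 ratios of cocaine over saline in each of the 4 hybridisations, centred (left panel) and as dye-profile values (right panel). Points are the 69 members coloured by family with their median as a black line, and grey bars to their right show the 25th to 75th (thick) and 5th to 95th (thin) percentiles of all genes with a symbol, with their median as a black line. Centred member medians are 0.72 and 1.09 with cocaine in Cy5 and -0.38 and -0.84 with saline in Cy5, while all 4 dye-profile medians lie between 0.01 and 0.09.

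The dye coefficient passed limma's adjusted p of 0.05 in 53 of 69 members, 51 towards Cy5 and 2 (Dnmt3b and Sirt6) towards Cy3. Of all features 77.9% passed, 34.5% towards Cy5 and 43.4% towards Cy3. Of the 19087 genes with a symbol, 8023 passed towards Cy5 and 6481 towards Cy3. When all features were cut by dye coefficient into 10 bins of like size, 46 members (66.7%) fell in the top 3 bins. In those bins 40 of 46 members had a cocaine coefficient above 0, with a median of 0.17, beside 83.2% and a median of 0.14 for all features there. In the top bin alone 14 of 16 members were above 0, beside 87.4% of all features (median 0.175). In the lowest bin, which held 0 members, 41.2% of all features were above 0 (median -0.05). An additive dye effect cancels in the mean of 2 hybridisations of either orientation. Why more features had cocaine coefficients above 0 at high dye coefficients was not tested.

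**Figure D3:**
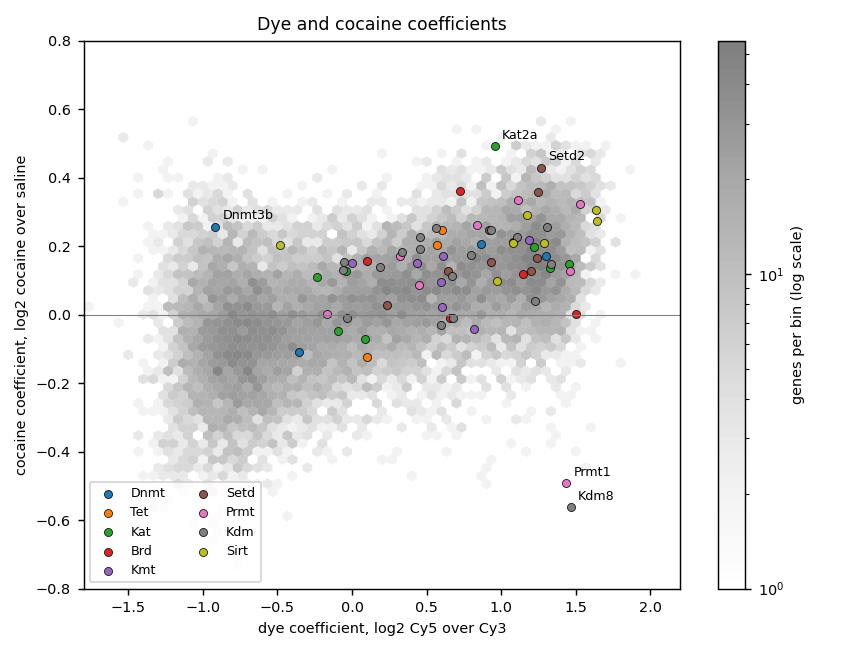
Dye coefficient (horizontal axis, log2 Cy5 over Cy3) against cocaine coefficient (vertical axis, log2 cocaine over saline) in centred values. Grey bins count genes with a symbol (28 genes lie outside the axes) and coloured points are the 69 members. Members sit mainly at the right, where most genes have cocaine coefficients above 0, and Prmt1 and Kdm8 lie below the other members.

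Among the DNA methyltransferases, 3 of 4 had a cocaine coefficient above 0 and 0 of 4 passed. Dnmt1, the maintenance enzyme that copies methylation after replication, had ratios of 1.33 and 1.61 with cocaine in Cy5 and -0.95 and -1.31 with saline in Cy5, a coefficient of 0.17 ± 0.17 (SE). Dnmt3a, a de novo methyltransferase with 3 probes, had 0.85 and 1.29 with cocaine in Cy5 and -0.43 and -0.89 with saline in Cy5 (0.21 ± 0.18). The sign followed the dye in both, and their dye-profile coefficients were 0.02 and 0.10. Dnmt3b, the other de novo enzyme, ran the opposite way to the dye of most members, with -0.54 and -0.78 with cocaine in Cy5 and 1.33 and 1.02 with saline in Cy5 (0.26 ± 0.17). Its dye-profile values were -0.06 and -0.02 with cocaine in Cy5 against 0.92 and 0.41 with saline in Cy5, with a coefficient of 0.31, so the hybridisations with saline in Cy5 alone were above 0. With Agilent scans only, the centred Dnmt3b coefficient was -0.03. Dnmt3l, the regulatory partner of the de novo enzymes, stood at -0.11 ± 0.18.

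The 3 Tet enzymes, which oxidise 5-methylcytosine and so start its removal, did not pass either. Tet1 had ratios of 0.66 and 0.89 with cocaine in Cy5 and -0.38 and -0.36 with saline in Cy5 (0.20 ± 0.17). Tet2 had 0.69 and 1.01 with cocaine in Cy5 and -0.18 and -0.54 with saline in Cy5 (0.25 ± 0.17), and its dye-profile values were above 0 in all 4 hybridisations, from 0.07 to 0.26. Tet3 went the other way, at -0.12 and 0.08 with cocaine in Cy5 and -0.14 and -0.31 with saline in Cy5 (-0.12 ± 0.17). Its 4 dye-profile values were all below 0, from -0.27 to -0.06. The difference between Tet2 and Tet3 was not tested. The 3 Tet3 probes stood at -0.38, -0.07 and 0.08.

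The upstream sequence of the members was searched for motifs of 3 kinds of factor that respond to neuronal activity, CREB (TGACGTCA), AP-1 (TGANTCA) and Egr (GCGNGGGCG). Both strands of the 250 bases before each start in RefSeq's promoter table (GRCm38.p6) were read. Of the 58 members with an entry, 1 held the CREB motif (1.72%, beside 1.77% of 27025 genes), 5 the AP-1 motif (8.62%, beside 7.82%) and 9 the Egr motif (15.5%, beside 5.33%). The members' upstream windows had a median GC content of 61.0% and a median of 17 CpG, beside 52.4% and 6 over all genes, and the part of base composition in the share of matches was not tested. The Egr matches of the DNA methylation enzymes are shown in capitals within 40 bases, 5′ to 3′ on the strand of the gene, for Dnmt3a (plus strand, chr12:3807016-3807055), the first of 2 matches of Dnmt3b (plus strand, chr2:153649359-153649398) and Tet1 (minus strand, chr10:62887535-62887574).
Dnmt3a: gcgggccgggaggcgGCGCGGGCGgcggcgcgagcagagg
Dnmt3b: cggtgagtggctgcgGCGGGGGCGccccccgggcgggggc
Tet1: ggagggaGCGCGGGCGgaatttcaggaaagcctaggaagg
The centred cocaine coefficients of the 9 holders, which besides these 3 were Kat14, Kdm2b, Kdm3a, Kdm7a, Kmt5a and Sirt1, lay between -0.04 and 0.26. A match is a run of letters and not a binding site.

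Histone acetyltransferases held the highest coefficient of the members. Kat2a, which encodes the acetyltransferase GCN5 of the SAGA and ATAC complexes, had ratios of 1.20 and 1.70 with cocaine in Cy5 and -0.21 and -0.72 with saline in Cy5. Its coefficient was 0.49 ± 0.18 (limma adjusted p = 0.755, unadjusted p = 0.0135). Its dye coefficient was 0.96. All 4 dye-profile values were above 0, at 0.24 and 0.31 with cocaine in Cy5 and 0.49 and 0.37 with saline in Cy5. The dye-profile coefficient was 0.35 ± 0.09 (limma adjusted p = 0.67). Kat2a was measured by 1 probe, and it was among 11 members whose dye-profile values were above 0 in all 4 hybridisations.

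Kat2b, the close relative of Kat2a that encodes PCAF, had centred ratios of -0.04 and -0.24 with cocaine in Cy5 and -0.14 and 0.22 with saline in Cy5 (-0.05 ± 0.17). Its 3 probes stood at -0.30, -0.01 and 0.16. The difference between Kat2a and Kat2b was not tested. Kat5, which encodes Tip60, stood at 0.20 ± 0.18, and Kat7, which encodes HBO1, at -0.07 ± 0.17. Kat6a stood at 0.11 ± 0.17, from 2 probes at -0.17 and 0.39, the widest gap between probes of any member. Over the family 6 of 8 coefficients were above 0.

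Of the 6 bromodomain genes, Brd9, whose protein is part of a SWI/SNF remodelling complex, had the highest coefficient. Its ratios were 0.91 and 1.26 with cocaine in Cy5 and 0.12 and -0.84 with saline in Cy5 (0.36 ± 0.19, or 0.119 without saline in Cy5 replicate 1). Saline in Cy5 replicate 1 was its highest dye-profile value at 0.62, and saline in Cy5 replicate 2 was at -0.05. The others lay between -0.01 (Brd8dc) and 0.21 (Brd3). Brd2, a reader of the BET class, stood at 0.003 ± 0.178.

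The Kmt and Setd families together had 14 of 15 coefficients above 0. Setd2, which trimethylates lysine 36 of histone H3 along transcribed genes, had ratios of 1.496 and 1.902 with cocaine in Cy5 and -0.31 and -1.37 with saline in Cy5. Its coefficient was 0.43 ± 0.19 (limma adjusted p = 0.805, unadjusted p = 0.0406), or 0.163 without saline in Cy5 replicate 1, and its dye-profile values were 0.33 and 0.29 with cocaine in Cy5 and 0.55 and -0.08 with saline in Cy5. Setd6, known for methylating the NF-kappaB subunit RelA, had 1.57 and 1.63 with cocaine in Cy5 and -0.70 and -1.07 with saline in Cy5 (0.36 ± 0.17). Both therefore had the sign of the dye in every centred hybridisation.

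The large trithorax-type methyltransferases of histone H3 lysine 4 lay nearer to 0 in dye-profile values. Kmt2a, also called MLL1, had 1.16 and 1.65 with cocaine in Cy5 and -0.77 and -1.18 with saline in Cy5 (0.22 ± 0.18), with a dye-profile coefficient of 0.05. Kmt2b stood at 0.15 ± 0.18 and its dye-profile coefficient was 0.09. Setd7, a lysine 4 monomethyltransferase, stood at 0.03 ± 0.17. Its 4 probes disagreed: 2 had dye coefficients of 1.62 and 1.31 with cocaine coefficients of -0.11 and -0.17, and 2 had dye coefficients of -1.15 and -0.84 with cocaine coefficients of 0.35 and 0.05.

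Among the arginine methyltransferases, 7 of 8 had a coefficient above 0 and Prmt1 was the exception. Prmt1, which makes most of the asymmetric dimethylarginine in cells, had ratios of -0.28 and 2.17 with cocaine in Cy5 and -1.72 and -2.14 with saline in Cy5 (-0.49 ± 0.27, limma adjusted p = 0.85). The pair with cocaine in Cy5 was far apart, while both values with saline in Cy5 were among the lowest of the members. Its dye-profile values were -1.68 and 0.32 with cocaine in Cy5 and -0.70 and -0.65 with saline in Cy5. In the dye-profile values of cocaine in Cy5 replicate 1, 58 of 31334 features (0.185%) were as low as Prmt1 or lower.

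Prmt5, the main enzyme of symmetric arginine dimethylation, stood at 0.32 ± 0.18 and had dye-profile values above 0 in all 4 hybridisations, from 0.04 to 0.25. Prmt8, a brain-enriched and membrane-anchored member, stood at 0.33 ± 0.19, or 0.117 without saline in Cy5 replicate 1, with dye-profile values from 0.002 to 0.45. Prmt6, which methylates arginine 2 of histone H3, stood at 0.002 ± 0.177, with ratios of -0.43 and 0.10 with cocaine in Cy5 and 0.33 and 0.01 with saline in Cy5. Prmt9 stood at 0.17 ± 0.17, and it is the 1 member of 58 (1.72%, beside 1.77% of all 27025 genes) whose upstream window held the full cyclic AMP response element TGACGTCA, the site bound by CREB. That window, on the plus strand at chr8:77549337-77549376 (GRCm38.p6, RefSeq), is shown with the element in capitals.
Prmt9: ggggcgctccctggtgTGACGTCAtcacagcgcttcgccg

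The largest family was that of the lysine demethylases, with 18 genes, 14 of them above 0 and a median of 0.15. Kdm8, a member of the JmjC oxygenase family, had the lowest coefficient of all members, with ratios of -0.34 and 2.15 with cocaine in Cy5 and -2.46 and -1.60 with saline in Cy5 (-0.56 ± 0.28, limma adjusted p = 0.825). Its dye-profile values were -1.81 and 0.24 with cocaine in Cy5 and -1.40 and -0.06 with saline in Cy5. It was low in replicate 1 of both orientations and near 0 or above in replicate 2 of both. In the dye-profile values of cocaine in Cy5 replicate 1, 29 of 31334 features (0.0926%) were as low or lower.

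Kdm8 and Prmt1, each with 1 probe, had like values scan by scan in the hybridisations with cocaine in Cy5. In replicate 1 Kdm8 had -1.11 (Axon) and 0.439 (Agilent), and Prmt1 had -1.004 and 0.445. In replicate 2 Kdm8 had 1.61 and 2.68, and Prmt1 had 1.66 and 2.68. With saline in Cy5 replicate 1 they were further apart, at -1.93 and -2.98 for Kdm8 and -1.25 and -2.18 for Prmt1. Both scanners thus gave lower values in replicate 1 than in replicate 2 with cocaine in Cy5. Without cocaine in Cy5 replicate 1 the coefficients were 0.06 for Kdm8 and 0.12 for Prmt1. Without cocaine in Cy5 replicate 2 they were -1.18 (limma adjusted p = 0.000358) and -1.10 (0.00134), so the 2 hybridisations with cocaine in Cy5 decide both the direction and the call. With 3 hybridisations limma gave every feature the same standard error (0.233), so those p-values hold nothing of the genes' own spread.

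**Figure D4:**
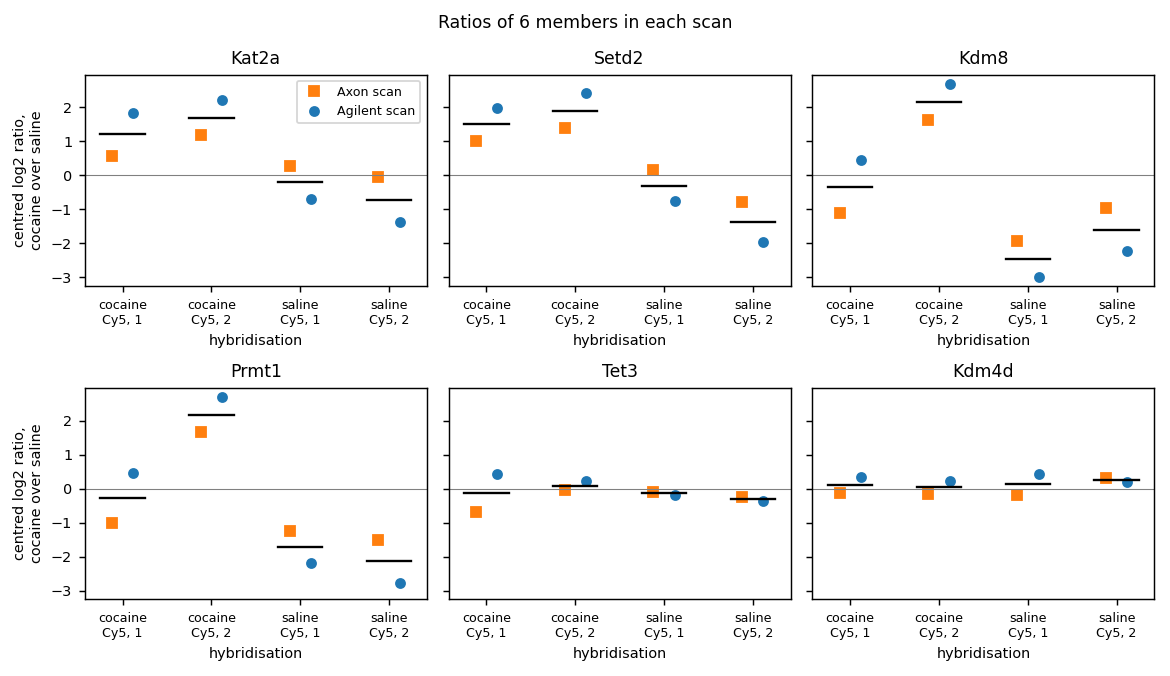
Centred log2 ratios of cocaine over saline (vertical axis) of 6 members in each hybridisation (horizontal axis), as read by the Axon scanner (squares) and the Agilent scanner (circles), with the mean of both as a black line. Kat2a and Setd2 follow the dye, Kdm8 and Prmt1 are lower in replicate 1 than in replicate 2 of cocaine in Cy5 in both scans, and the scan means of Tet3 and Kdm4d lie between -0.31 and 0.25.

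Kdm4d and Kdm6a were the members whose centred ratios had the same sign in all 4 hybridisations, both above 0 (2 of 69, or 2.90%, where 1.84% of all features had 1 sign throughout and 1.08% were higher in all 4). Kdm4d, of the family that acts on methylated lysine 9 of histone H3, had 0.11 and 0.04 with cocaine in Cy5 and 0.12 and 0.25 with saline in Cy5 (0.13 ± 0.17), and with Axon scans only its coefficient was -0.04. Kdm6a, the X-linked demethylase of lysine 27 also called UTX, had 0.07 and 0.13 with cocaine in Cy5 and 0.37 and 0.05 with saline in Cy5 (0.15 ± 0.17). Its 2 probes had dye coefficients of 0.45 and -0.56, so that the dye largely cancelled in their mean. The dye-profile values of Kdm6a were 0.27 and 0.41 with cocaine in Cy5 and 0.11 and -0.20 with saline in Cy5. Its Agilent scans with cocaine in Cy5 were below 0, at -0.09 and -0.14. So was its Axon scan of saline in Cy5 replicate 2 (-0.09), and its other scans were above 0. Neither the coefficient of Kdm4d nor that of Kdm6a exceeded its standard error.

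None of the other demethylases passed either. Kdm6b, the lysine 27 demethylase induced by stimuli in many cells, had 1.32 and 1.34 with cocaine in Cy5 and -0.79 and -0.96 with saline in Cy5 (0.23 ± 0.17). Kdm1a, the lysine 4 demethylase LSD1, stood at 0.15 ± 0.18, and its dye-profile coefficient was -0.03. Kdm5c, an X-linked lysine 4 demethylase, had 1.04 and 1.49 with cocaine in Cy5 and -0.94 and -1.43 with saline in Cy5 (0.04 ± 0.18). Its dye-profile values were below 0 in all 4 hybridisations, from -0.18 to -0.07. Among 18 Kdm genes, 5 had dye-profile values above 0 in all 4 hybridisations and 1 had them below 0.

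Sirtuins had all 7 coefficients above 0, between 0.10 (Sirt1) and 0.31 (Sirt7). Sirt7, a nucleolar sirtuin, had 1.70 and 2.18 with cocaine in Cy5 and -0.98 and -1.67 with saline in Cy5 (0.31 ± 0.18), and its 2 probes stood at 0.30 and 0.31. Sirt1, a nuclear deacetylase, had 0.97 and 1.17 with cocaine in Cy5 and -0.71 and -1.03 with saline in Cy5 (0.10 ± 0.17). Sirt2, a largely cytoplasmic sirtuin abundant in myelin-forming cells, had 0.89 and 1.69 with cocaine in Cy5 and -0.68 and -1.06 with saline in Cy5 (0.21 ± 0.19). The dye-profile coefficients of Sirt7, Sirt1 and Sirt2 were 0.10, -0.04 and 0.06.

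In dye-profile values 16 of 69 members (23.2%) had the same sign in all 4 hybridisations, 11 higher and 5 lower, beside 19.1% of all features (9.57% higher, 9.48% lower). Because the dye profile was averaged from the same arrays, the 4 signs are not independent of each other. The 5 lower members were Brd8dc, Kat14, Kdm5c, Kmt5a and Tet3, with dye-profile coefficients between -0.16 and -0.04.

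Of the 69 members, 32 had 1 probe and 37 had 2 to 5. Cocaine coefficients of the single probes were all above 0 in 22 of those 37 genes and of both signs in 15. Dye coefficients were of both signs in 22 members. Probes annotated to RefSeq mRNAs had a median dye coefficient of 0.97 over 93 member probes, and all other member probes had 0.47 over 41. Over all probes with a symbol these medians were 0.40 and -0.33. The mean over probes of a gene therefore mixes probes of different dye behaviour, as in Tet3, Kat2b and Setd7.

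**Figure D5:**
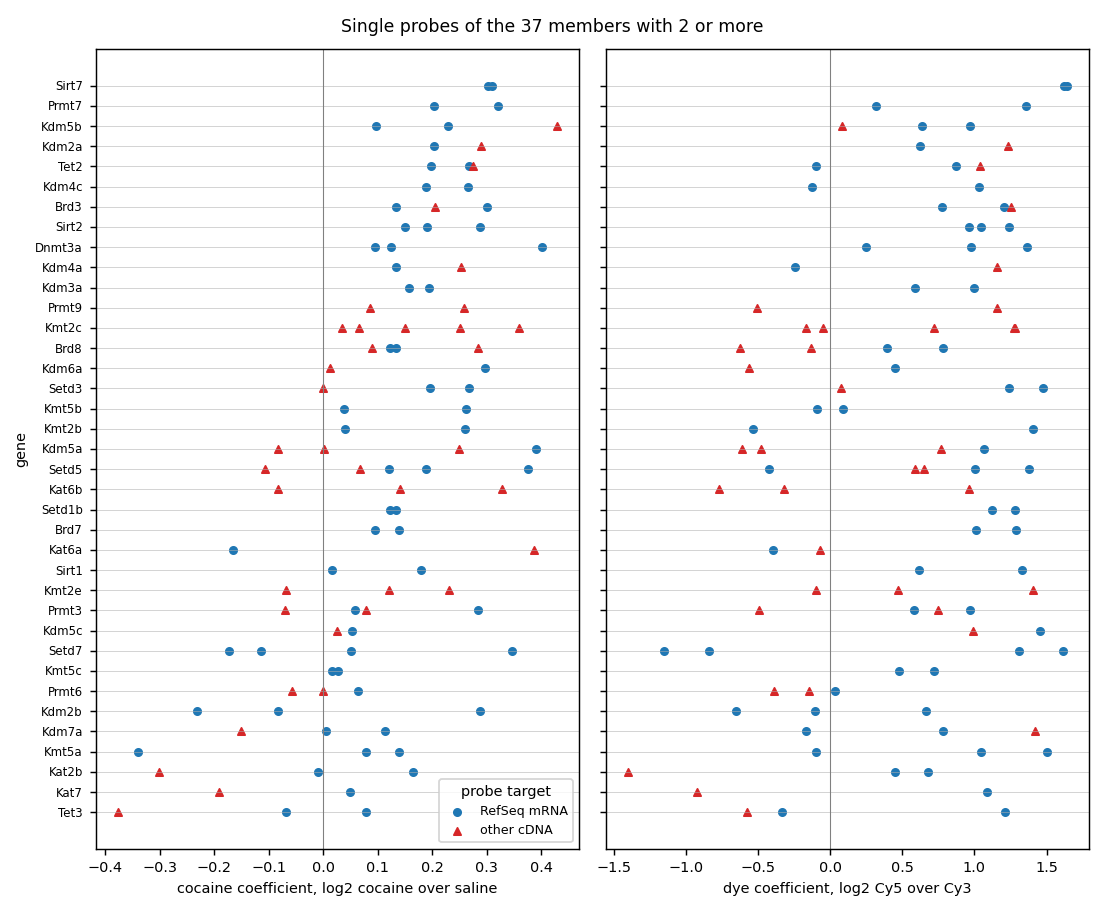
Cocaine coefficients (left panel, log2 cocaine over saline) and dye coefficients (right panel, log2 Cy5 over Cy3) of the single probes of the 37 members with 2 or more probes, 1 row per gene. Circles are probes annotated to RefSeq mRNAs and triangles are all other probes, which the key calls other cDNA. Cocaine coefficients lie between -0.38 and 0.43, while dye coefficients of 1 gene can lie on both sides of 0, as for Setd7 at -1.15 and 1.62.

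Other genes of the same pathways, which the name rule does not take, were measured for 71 of 75 listed. They were Polycomb and trithorax subunits, methyl-CpG binding proteins, further acetyltransferases, methyltransferases and demethylases. Of these 0 were higher and 1 was lower at limma's adjusted p of 0.05, Prdm8, a repressor of the PRDM family active in cortical development, at -2.14 ± 0.33 (adjusted p = 0.0199). This call was lost in 5 of 12 alternative limma fits, among them the one on dye-profile values (-2.17, adjusted p = 0.67), and in 5 of the 7 that kept it every feature shared 1 standard error. Prdm8 had ratios of -3.78 and -0.44 with cocaine in Cy5 and -2.15 and -2.19 with saline in Cy5. The list had 57 coefficients above 0 and a median of 0.09, and 38 dye-profile coefficients above 0. By p the next were Riox2, a ribosomal oxygenase, at 0.37 ± 0.18 and Hr, a demethylase known from hair growth, at -0.37 ± 0.19. Ehmt2, the lysine 9 methyltransferase G9a, stood at 0.23 ± 0.18. The acetyltransferases Crebbp and Ep300 stood at -0.23 ± 0.17 and 0.08 ± 0.17.

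Lists of cell type markers were read in the same ratios. Of 14 cortical projection neuron markers 12 were below 0, with a median of -0.25. As lower 3 passed (Tbr1, Nrn1 and Neurod6), where 0.0223% of all features did. All 13 markers of medium spiny neurons, the main cells of the nucleus accumbens, were above 0, with a median of 0.37, and 0 passed. Their median dye coefficient was 1.42, within the top dye bin, where 87.4% of all features were above 0. In dye-profile values 12 of the 13 markers were above 0, with a median of 0.18. Of 11 oligodendrocyte markers 9 were below 0, with dye-profile medians of -0.52 and 0.14 with cocaine in Cy5 and -0.44 and -0.12 with saline in Cy5. Kdm8, set beside them after its values were seen, was also low in replicate 1 of both orientations. Sirt2 had dye-profile values of -0.18 and 0.19 with cocaine in Cy5 and 0.09 and 0.13 with saline in Cy5. Of the oligodendrocyte, astrocyte and microglia markers 0 passed. The 7 astrocyte markers had a median of 0.06 and the 6 microglia markers one of 0.02, and the dye-profile medians of these lists were -0.03 and -0.08. Whether these marker ratios are related to the ratios of the chromatin genes was not tested.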

How the data were processed

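The deposited values are log2 ratios of 2 channels, 44290 rows for each of 8 scans. For image analysis, background correction and normalization the methods were not given in the sources used here, and base 2 was inferred from the data. Scan medians lay between -0.885 and -0.617 with cocaine in Cy5 and between 0.637 and 0.823 with saline in Cy5. Per the labels' protocols, 75 ng of total RNA was amplified and labelled per sample. Values beyond 16 in size (4 to 37 per scan) were treated as missing.

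The probe annotation does not follow the order of the deposited rows. A grid of 430 rows and 103 columns was used, under which probe pairs of the same accession correlated at 0.506 in dye effect over 4732 pairs, against -0.007 in table order. Every gene name rests on that layout. It placed 32042 rows with 1 symbol, 47 with several (not named) and 12201 with none.

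Scans were centred on their medians, probes averaged per symbol and the 2 scans averaged, and a gene needed a value in each hybridisation. limma 3.58.1 (R 4.3.3) fitted a cocaine and a dye coefficient over all 31334 features, with 2 residual degrees of freedom and 15.9 from the prior. P-values are two-sided and adjusted by Benjamini-Hochberg over all features. They rest on the spread between 4 hybridisations, drawn towards a value pooled over all features. With 15.9 degrees of freedom from the prior and 2 from the gene, the pooled value carries most of the weight. The number of arrays limits the precision. On simulated ratios of 31334 features, 99% of genes changed by 1 log2 unit and 100% of those changed by 2 were called, with 12 false calls. These shares hold for the simulated spread and are not the power in the arrays themselves. There the cortical marker Ccn2, at -1.39 ± 0.29, was not called (limma adjusted p = 0.135). Dye-profile values are residuals of a loess (span 0.3, 4 iterations) of each scan along the mean Cy5 over Cy3 ratio of the Agilent scans.

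Members named in the text are those with the same sign in all 4 hybridisations, the 6 highest and 6 lowest, the smallest p of each family, a panel of main enzymes, and the 2 with the widest probe gap. Others named beside a range or count were chosen after their values were seen. Alternatives changed the dye coefficient, normalization, centring, scanner, probe averaging, stop values and each hybridisation. The members, lists and tests were chosen with earlier results of these data known.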

Additional observations from a re-analysis of the deposited data

Results flagged for a closer look

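In dye-profile values the 4 hybridisations of each of the 69 members were searched for 1 value far from the other 3. Kat5 had 0.132 in saline in Cy5 replicate 1, against -0.004 to 0.019 in the other 3 (gap over range 0.833). Tet1 had -0.050 in the same hybridisation, against 0.168 to 0.203 (gap over range 0.86). For 4 independent normal values chance gives about 1 in 20 sets, or 3.45 of 69, and 2 were found. Dye-profile values are not independent, since the profile was averaged from the same arrays, so that rate need not hold for them.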

How the results depend on the processing

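The number of members past the threshold was 0 under the alternatives run except without cocaine in Cy5 replicate 2, where it was 2, Kdm8 and Prmt1, both lower. The members' median cocaine coefficient stayed above 0 in all of them, from 0.0605 (dye-profile values) to 0.243 (without saline in Cy5 replicate 2), with 66.7% to 92.8% of members above 0. The number of all features past the threshold was 8, and it was 0 without the dye coefficient, in dye-profile values, when centred on probes with a symbol and with Axon scans only. It was 20 with Agilent scans only, 30 with the median of probes, 120 with each probe fitted on its own, 4 with stop values kept, and 66 to 288 with 1 hybridisation left out. With each probe on its own, and with 1 hybridisation left out, limma gave all features 1 standard error (0.203, and 0.233 or 0.251), so those counts, and the calls of Kdm8 and Prmt1, rest on the size of the coefficient alone, and the lone hybridisation of an orientation is assumed to vary like the others. The cause of the other differences was not tested.

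The named members that changed sign were these. In dye-profile values they were Kdm1a (-0.0296), Kdm5c (-0.118), Prmt6 (-0.0159), Setd7 (-0.0337) and Sirt1 (-0.0359). Centred on probes with a symbol they were Prmt6 (-0.0277) and Setd7 (-0.00234). With Axon scans only they were Dnmt3l (0.0113), Kdm4d (-0.0393) and Prmt6 (-0.0517). With Agilent scans only they were Dnmt3b (-0.0303), Kat2b (0.02), Setd7 (-0.0953) and Tet3 (0.0248). With the median of probes they were Kat2b (0.133), Prmt6 (-0.059) and Setd7 (-0.0762). With 1 hybridisation left out at a time, the coefficient ran from -1.18 to 0.0579 for Kdm8, -1.1 to 0.121 for Prmt1, -0.228 to 0.0107 for Dnmt3l, -0.139 to 0.0421 for Kat2b, -0.168 to 0.0247 for Kat7, -0.0819 to 0.16 for Kdm5c, -0.132 to 0.137 for Prmt6 and -0.0571 to 0.112 for Setd7. Of the other named members, 17 moved by over 1.5 times in at least 1 such fit and 6 (Dnmt3b, Kat2a, Kdm4d, Kdm6b, Setd6 and Tet1) did not. The cause was not tested. With no intensities, no filter on dim probes was made.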
